A study of Homo sapiens with 12 samples.

Results

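The MHC class II genes described here are HLA-DRA, HLA-DRB1, HLA-DPA1, HLA-DPB1, HLA-DMA, HLA-DMB, HLA-DOA, CD74 and CIITA, 9 of the 26485 genes counted in the data. They were selected because HLA-DRA and HLA-DPA1 were lower in both stably transfected lines than in the knockout line they were made from. The differences from the knockout line therefore chose the genes, and they are given below as a description, with no p and nothing read from how many passed a threshold. The comparison of the transfected lines with each other was not part of that choice and was tested.

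RNA was sequenced from spheroids of 3 lines made from DU145 cells, a widely used human line of prostate cancer. In DU145KO, Crispr/Cas9 editing of ITGA2, the gene of α2 integrin, had removed the α2 protein from the cell surface, and the edited cells were selected as a pool by their GFP and surface α2. DU145KO+α2 is the same knockout line carrying the cDNA of α2 in the pAWneo2 vector, and DU145KO+vector received pAWneo2 without an insert. Both were stably transfected with pAWneo2 and kept under geneticin, so this transfection and the drug selection cannot be told apart as differences from DU145KO. DU145KO had neither of these, but its cells had been transfected with the Crispr/Cas9 vector. The transfected lines below are the pair with pAWneo2. Each line had 4 samples, counted by the study's methods as independent biological replicates, from spheroids of 8000 cells grown for 72 hours in serum-free medium. Unedited DU145 cells were not analysed here.

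MHC class II molecules are pairs of an alpha and a beta chain that show peptides from endosomes to CD4+ T cells. They are normally made by B cells, dendritic cells and macrophages, and epithelial cells mostly make them after exposure to interferon-γ. The invariant chain CD74 occupies the peptide groove during transport, HLA-DM exchanges its remnant for other peptides and HLA-DO restrains HLA-DM. Transcription of these genes depends on CIITA, a transactivator that binds no DNA itself but is recruited by factors sitting on a conserved promoter module, in which RFX binds the X box and NF-Y the Y box.

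Promoter stretches of 5 of the genes are printed to show this module, which lies upstream of genes that differed widely in these lines. RefSeq promoters (GRCh38.p14, 250 bases before to 50 bases after the start of a gene) were found for 7 of the 9 genes and not for HLA-DRA and CIITA. The stretches below read 5′ to 3′ on the minus strand, with capitals marking an X box-like motif (CNAGNAAC) and, where present within 50 bases downstream, the Y box core ATTGG or its complement CCAAT. The motifs were chosen after the sequences were seen. They lie at chr5:150412939-150412999 (CD74), chr6:32589875-32589935 (HLA-DRB1), chr6:32941064-32941124 (HLA-DMB), chr6:33009640-33009700 (HLA-DOA) and chr6:33073696-33073756 (HLA-DPA1).
CD74: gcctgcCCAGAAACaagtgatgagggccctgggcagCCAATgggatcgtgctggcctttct
HLA-DRB1: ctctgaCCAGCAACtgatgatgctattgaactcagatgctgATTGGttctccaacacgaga
HLA-DMB: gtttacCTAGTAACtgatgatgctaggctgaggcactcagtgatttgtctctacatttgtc
HLA-DOA: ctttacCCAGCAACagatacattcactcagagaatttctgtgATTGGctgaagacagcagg
HLA-DPA1: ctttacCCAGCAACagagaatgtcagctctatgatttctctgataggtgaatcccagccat

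Counted from the RefSeq start of the promoter, the X box-like motif began 83 bases before CD74, 81 before HLA-DRB1, 90 before HLA-DMB, 103 before HLA-DOA and 101 before HLA-DPA1. The RefSeq start was the GENCODE start, used for the gene positions below, for HLA-DRB1, HLA-DMB and HLA-DOA, and it lay 59 bases inside the GENCODE gene for CD74. RefSeq gave 2 starts for HLA-DPA1, and the stretch belongs to the one that lay 7126 bases inside the GENCODE gene. Searched on both strands, CNAGNAAC was in the promoters of 6 of the 7 genes and in 12.1% of 35116 RefSeq promoters, and ATTGG was in 6 of the 7 and in 34.6%. The ordered pair was in CD74, HLA-DRB1 and HLA-DOA and in 0.476% of all promoters. HLA-DPA1 and HLA-DRB1, which both carry the X box-like motif, had the largest and the smallest of the differences between DU145KO+α2 and DU145KO given below. This did not hold for log2 fold changes in DU145KO+vector against DU145KO. There HLA-DRA (−3.27) was farthest from 0 and HLA-DMB (−0.58) closest, with HLA-DPA1 at −3.06 and HLA-DRB1 at −0.92. The part of the motif in these differences was not tested. A match of letters is a description and not a measured binding site.

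The libraries held 13948734 to 19988111 counted reads (median 16446500.5), and 3 counts, taken as the detection floor, corresponded to 0.150 to 0.215 CPM (counts scaled to the library size after TMM normalization). These limits cover counting error only. ITGA2 was at 259 to 332 CPM in DU145KO+α2, at 13.0 to 20.2 CPM in DU145KO+vector and at 15.7 to 25.8 CPM in DU145KO, which follows the labels, although an edit can leave the transcript in place. A filter on low counts left 14732 genes, among them 8 of the 9 class II genes, HLA-DOA being the exception. A gene was called differentially expressed (DE) at a fold change above 2 with an adjusted p below 0.05.

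HLA-DRA, HLA-DPA1 and HLA-DPB1, chains of the peptide-binding molecules HLA-DR and HLA-DP, had the largest differences from DU145KO. HLA-DRA, the alpha chain of HLA-DR (chromosome 6, 32439878 to 32445046, GRCh38), reached 23.4, 13.7, 12.7 and 13.3 CPM in DU145KO (replicates 1 to 4, the order kept below). It was at 2.24, 1.8, 1.0 and 1.46 CPM in DU145KO+α2 and at 2.72, 1.8, 1.15 and 0.758 CPM in DU145KO+vector. Every knockout sample was far above every transfected sample, and the transfected lines overlapped throughout. The log2 fold change from DU145KO was −3.27 (standard error 0.33) in both DU145KO+α2 and DU145KO+vector, a 9.65-fold lower level in each.

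HLA-DPA1, the alpha chain of HLA-DP (chromosome 6, 33064569 to 33080775), showed the same picture at a lower level. It was at 8.20, 6.90, 5.47 and 5.85 CPM in DU145KO, at 0.621, 1.05, 0.532 and 0.255 CPM in DU145KO+α2 and at 0.831, 1.29, 0.518 and 0.551 CPM in DU145KO+vector. The knockout samples again did not overlap the others, and the lowest library, DU145KO+α2 replicate 4, rested on 4 counts. The log2 fold change from DU145KO was −3.37 (standard error 0.33) in DU145KO+α2 and −3.06 (standard error 0.32) in DU145KO+vector. HLA-DPB1, the beta chain that pairs with HLA-DPA1 (chromosome 6, 33075990 to 33089696), was rare in all lines. It was at 2.45, 1.77, 1.48 and 1.76 CPM in DU145KO, at 0.435, 0.750, 0.532 and 0.318 CPM in DU145KO+α2 and at 0.499, 0.718, 0.230 and 0 CPM in DU145KO+vector. All knockout samples were above all transfected samples, at log2 fold changes of −1.82 (standard error 0.43) and −2.34 (standard error 0.49).

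HLA-DRB1, the beta chain that pairs with HLA-DRA (chromosome 6, 32577902 to 32589848), did not follow its partner. It was at 24.2, 21.3, 15.5 and 17.4 CPM in DU145KO, at 23.2, 19.0, 14.4 and 12.1 CPM in DU145KO+α2 and at 13.7, 12.5, 7.25 and 7.85 CPM in DU145KO+vector. DU145KO+α2 overlapped DU145KO, whereas all DU145KO+vector samples were below all DU145KO samples. The log2 fold change from DU145KO was −0.19 (standard error 0.24) in DU145KO+α2 and −0.92 (standard error 0.24) in DU145KO+vector. The knockout line thus held HLA-DRA and HLA-DRB1 at overlapping CPM per kilobase, and in the transfected lines HLA-DRB1 was above HLA-DRA without overlap.

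CD74, the invariant chain (chromosome 5, 150401637 to 150412969), had the highest level per kilobase of the 9 genes in DU145KO. It was at 99.3, 72.6, 74.3 and 76.4 CPM in DU145KO, at 34.7, 38.7, 23.3 and 24.0 CPM in DU145KO+α2 and at 48.3, 51.1, 38.5 and 42.3 CPM in DU145KO+vector. Both transfected lines lay below every knockout sample, DU145KO+α2 on average lowest. The log2 fold change from DU145KO was −1.41 (standard error 0.16) in DU145KO+α2 and −0.84 (standard error 0.16) in DU145KO+vector. Within 5 Mb of CD74, 42 and 45 of the 50 other genes tested also had a log2 fold change below 0 in these comparisons, with medians of −0.22 and −0.16, and the part of this in the result was not tested.

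The HLA-DM chains, which catalyse peptide exchange, differed less. HLA-DMA (chromosome 6, 32948613 to 32969094) was at 49.2, 32.6, 32.1 and 33.5 CPM in DU145KO, at 32.9, 29.7, 24.8 and 23.9 CPM in DU145KO+α2 and at 29.3, 25.1, 18.5 and 21.8 CPM in DU145KO+vector. DU145KO+α2 overlapped DU145KO through its replicate 1 alone, and DU145KO+vector lay below it. HLA-DMB (chromosome 6, 32934629 to 32941028) was at 11.1, 8.19, 5.84 and 6.67 CPM in DU145KO, at 5.71, 6.55, 4.25 and 5.79 CPM in DU145KO+α2 and at 6.65, 6.53, 4.03 and 3.99 CPM in DU145KO+vector. The lines overlapped, and the log2 fold changes from DU145KO were −0.40 and −0.64 for HLA-DMA and −0.51 and −0.58 for HLA-DMB. HLA-DOA, a chain of the HLA-DM inhibitor (chromosome 6, 33004182 to 33009591), had 8, 6, 3 and 6 counts in DU145KO, 2, 5, 3 and 1 in DU145KO+α2 and 2, 1, 1 and 1 in DU145KO+vector. The transfected libraries were mostly at or below the floor of 3 counts, so no fold change is given.

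CIITA, the transactivator (chromosome 16, 10866222 to 10943021), was a low transcript that also differed between the knockout and the transfected lines. It was at 2.91, 2.32, 2.46 and 2.46 CPM in DU145KO, at 0.311, 0.850, 1.12 and 1.02 CPM in DU145KO+α2 and at 1.16, 1.29, 0.805 and 0.758 CPM in DU145KO+vector. The knockout samples had 38 to 44 counts and the transfected samples 5 to 21, with no overlap. The log2 fold change was −1.61 (standard error 0.29) in DU145KO+α2 and −1.33 (standard error 0.29) in DU145KO+vector.

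**Figure D1:**
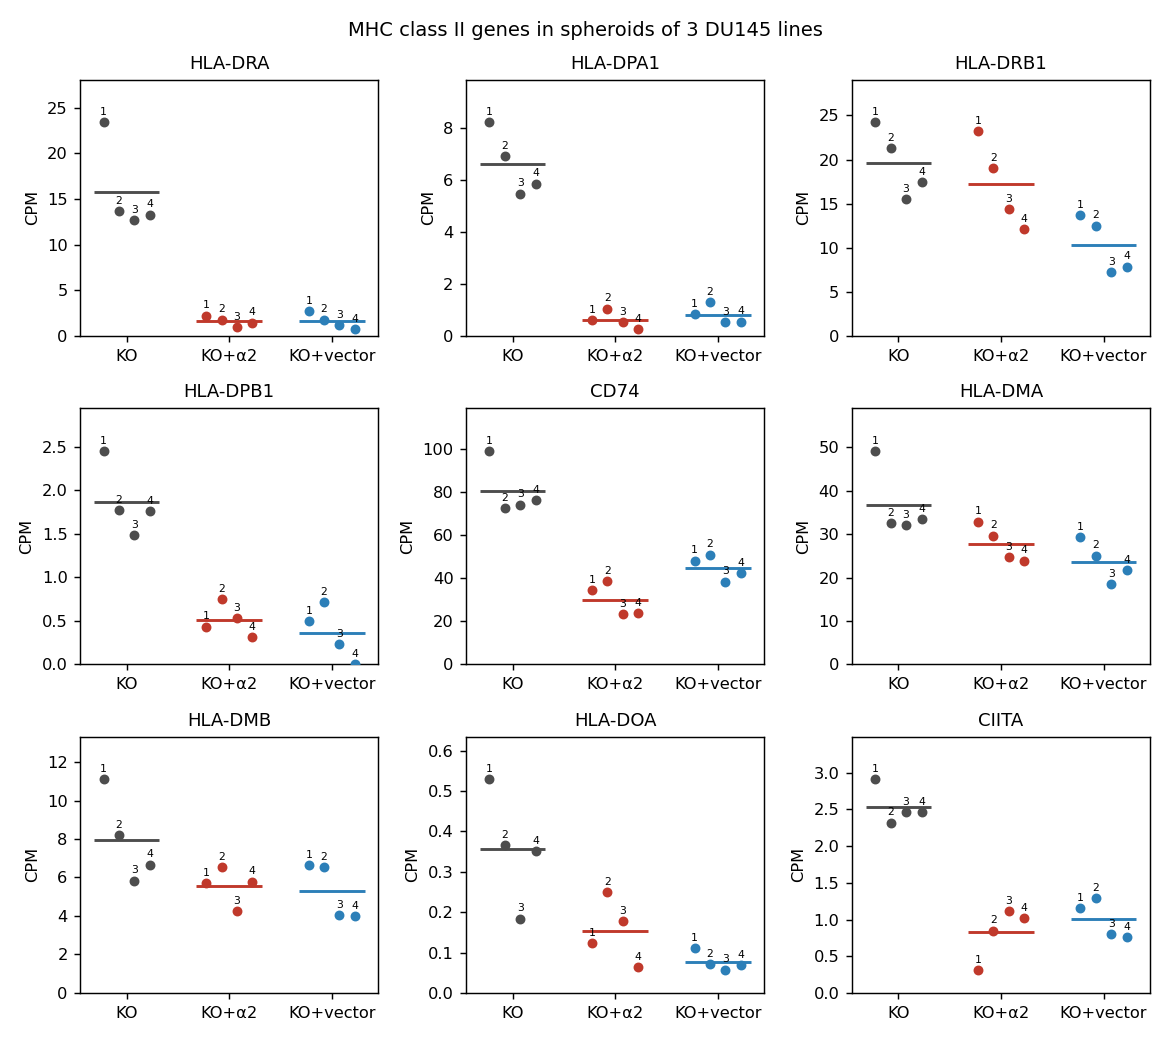
Level of each of the 9 MHC class II genes (CPM, linear axis from 0, a separate scale per gene) in every sample of DU145KO, DU145KO+α2 and DU145KO+vector. Points are samples with their replicate number, horizontal lines are means of 4 samples, and HLA-DRA, HLA-DPA1, HLA-DPB1, CD74 and CIITA are the 5 genes tested whose DU145KO samples lie above all samples of both other lines.

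Counted over the 8 genes tested, the log2 fold change was below 0 for 8 of 8 in DU145KO+α2 against DU145KO (median −1.51, against 0.00 over all genes tested). The lines did not overlap for 5 of the 8, where 7.43% of all genes tested were lower without overlap, and 5 were DE, where 1.67% of all genes tested were DE and lower. In DU145KO+vector against DU145KO it was below 0 for 8 of 8 (median −1.13, against 0.00). There 7 of 8 did not overlap (4.8% of all genes tested) and 4 were DE (0.808%). Nothing is read from these counts, since the same differences chose the genes, and both comparisons share the DU145KO samples. The count of DE members in DU145KO+vector against DU145KO was 2 without replicate 3 of DU145KO+vector, when CIITA and HLA-DPB1 were lost, and 3 without replicate 1 of DU145KO or replicate 4 of DU145KO+vector, when CIITA was lost. In bulk RNA, fewer cells with class II transcripts and less transcript per cell cannot be told apart.

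**Figure D2:**
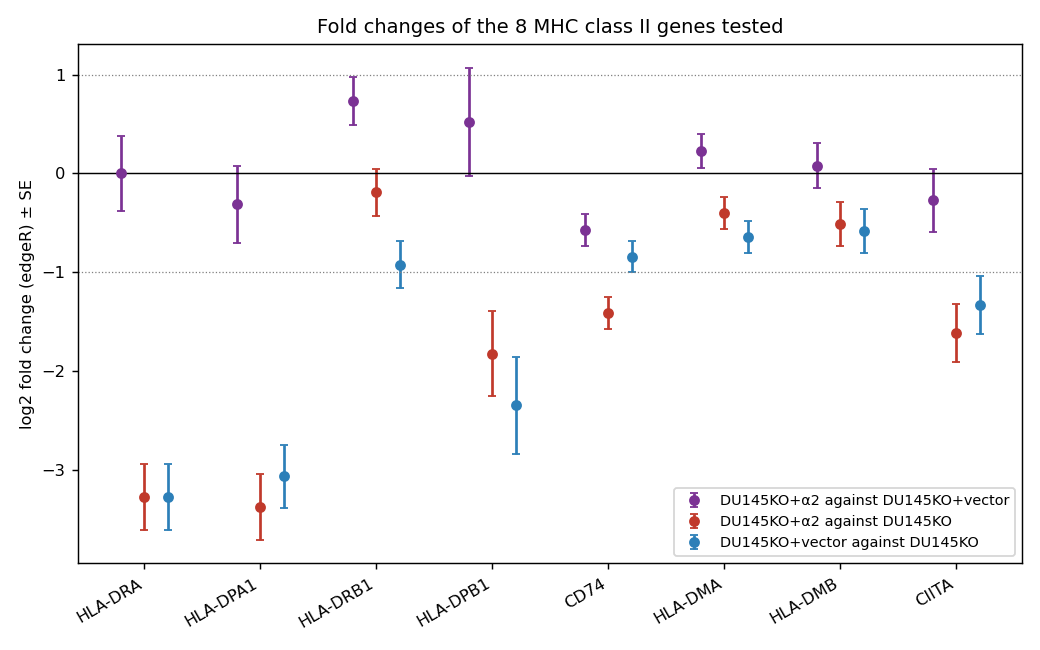
Log2 fold change of the 8 MHC class II genes tested (vertical axis, edgeR) in 3 comparisons, with bars of ± 1 standard error and dotted lines at a fold change of 2. HLA-DRA and HLA-DPA1 lie between −3.37 and −3.06 in both comparisons with DU145KO and close to 0 between the transfected lines, where HLA-DRB1 (0.73) and CD74 (−0.57) are farthest from 0.

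DU145KO+α2 against DU145KO+vector compares class II transcripts between transfected lines that differ in the α2 cDNA. Each is a single stable line, so α2 and other differences between the lines cannot be told apart. This holds for every comparison of the transfected lines below, where the tests measure the spread between samples of a line. By edgeR's quasi-likelihood test 0 of the 8 genes were DE here, where 2.21% of all genes tested were, and the count was also 0 at an unadjusted p below 0.05, with DESeq2 and with limma. At any fold change 1 gene had an adjusted p below 0.05 in edgeR, where 11.9% of all genes did, with 2 in DESeq2 and 1 in limma. The median log2 fold change of the 8 was 0.04, against −0.01 over all genes tested, and all 8 had overlapping samples, where 8.4% of all genes were higher and 8.8% lower without overlap.

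HLA-DRA, whose level differed so much from DU145KO, had a log2 fold change of 0.00 between the transfected lines (standard error 0.38, 95% interval −0.82 to 0.82). It was 0.41 (standard error 0.38) without replicate 1 of DU145KO+vector. For HLA-DPA1 the value was −0.31 (95% interval −1.15 to 0.52, adjusted p = 0.689) and for HLA-DPB1 0.52 (−0.65 to 1.68, adjusted p = 0.618), so at these low counts both intervals reached past a 2-fold difference. The DM chains were closer, with 0.23 for HLA-DMA (−0.12 to 0.59, adjusted p = 0.429) and 0.08 for HLA-DMB (−0.41 to 0.56, adjusted p = 0.888). CIITA was at −0.27 (−0.96 to 0.41, adjusted p = 0.664).

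Relative to DU145KO+vector, CD74 was lower in DU145KO+α2, at a log2 fold change of −0.57 (standard error 0.16, 95% interval −0.93 to −0.22, adjusted p = 0.0369 from edgeR). It was lower in 4 of 4 pairs of the same replicate number, but the lines overlapped by the second replicate of DU145KO+α2 (38.7 CPM) and the third of DU145KO+vector (38.5 CPM), with a two-sided exact permutation p of 0.0571, where the smallest possible is 0.0286. The adjusted p was above 0.05 without replicate 3 (0.102) or 4 (0.0965) of DU145KO+α2 and without replicate 1 (0.101), 2 (0.105) or 4 (0.0597) of DU145KO+vector. With the replicate number as a block it was 0.00287. Around CD74, 32 of the 50 other genes tested within 5 Mb were below 0, with a median of −0.05.

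HLA-DRB1 moved the other way, with a log2 fold change of 0.73 (standard error 0.24, 95% interval 0.20 to 1.26) that did not pass the test (adjusted p = 0.0734, edgeR). It was higher in DU145KO+α2 in 4 of 4 pairs, with an exact permutation p of 0.0857. Because same-numbered samples deviated together, the block on replicate number narrowed the error, to 0.74 (standard error 0.10, adjusted p = 6.47e-06), and it passed at less than 2-fold. It also passed without replicate 4 of DU145KO+α2 (adjusted p = 0.0410) and without replicate 1 of DU145KO+vector (0.0419). The block also brought HLA-DMA past the threshold, at 0.25 (standard error 0.08, adjusted p = 0.0252), so that 3 of 8 class II genes had an adjusted p below 0.05 with the block, where 26.5% of all genes tested did.

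Levels of the genes relative to each other were compared as CPM per kilobase of canonical transcript. This measure takes no account of reads lost where a sequence is not unique, so the order describes counted reads and not transcript amounts. In DU145KO the order was CD74 (48.8 ± 7.59, SD, n = 4), HLA-DMA (33.7 ± 7.56), HLA-DRB1 (16.0 ± 3.19), HLA-DRA (12.8 ± 4.13), HLA-DMB (5.90 ± 1.72), HLA-DPA1 (3.88 ± 0.718), HLA-DPB1 (0.467 ± 0.104), CIITA (0.158 ± 0.016) and HLA-DOA (0.103 ± 0.0407). The neighbours CD74 and HLA-DMA, HLA-DRB1 and HLA-DRA, HLA-DMB and HLA-DPA1, and CIITA and HLA-DOA overlapped in their ranges. In DU145KO+α2 HLA-DMA came first (25.5 ± 3.87), overlapping CD74 (18.3 ± 4.67), and HLA-DRA (1.32 ± 0.422) came below HLA-DRB1 (14.0 ± 4.05) and HLA-DMB (4.14 ± 0.711) without overlap. In DU145KO+vector CD74 came first (27.2 ± 3.45), overlapping HLA-DMA (21.6 ± 4.24), and HLA-DRA (1.30 ± 0.692) again came below HLA-DRB1 (8.45 ± 2.67) and HLA-DMB (3.93 ± 1.11) without overlap. At these canonical lengths HLA-DPA1, HLA-DPB1, CIITA and HLA-DOA followed in that order in each line, and the place of CIITA depends on its length (below). Next to each other, CD74 and HLA-DRB1, HLA-DPA1 and HLA-DPB1, and CIITA and HLA-DOA overlapped in DU145KO+α2, as did HLA-DRA and HLA-DPA1, and HLA-DPB1 and CIITA, in DU145KO+vector.

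The gene lengths behind the authors' RPKM values matter for such comparisons. For the 7 members on chromosome 6 that length was 5.21 to 8.36 times the canonical transcript (median 8.24), while over 13407 genes tested the median ratio was 1.02 and 2.7% were above 3. For CD74 the ratio was 1.02 and for CIITA, with a canonical transcript of 16061 bases, it was 0.293. In DU145KO, HLA-DRA therefore had a deposited RPKM of 1.53 beside 12.8 CPM per kilobase, and the RPKM of CD74, 47.5, cannot be set against those of the HLA genes. At the 4706 bases behind it, the deposited RPKM of CIITA averaged 0.534 (DU145KO), 0.175 (DU145KO+α2) and 0.213 (DU145KO+vector). These means lay above those of HLA-DPB1 at its canonical length, which were 0.467, 0.127 and 0.0906 CPM per kilobase. The place of CIITA below HLA-DPB1 thus depends on the length used. Ratios of one gene between samples are not affected by its length.

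The class II region of hg38 also occurs on alternate contigs. Of the 50-base windows in the exons of HLA-DRA, 100% occurred once on the chromosomes but 0% once the other contigs of hg38 were included, with a median of 7 further copies. The same share was 0% for HLA-DPA1, HLA-DPB1 and HLA-DOA, 4.2% for HLA-DMA, 1.1% for HLA-DMB, 74.4% for HLA-DRB1, 94.9% for CD74 and 96.1% for CIITA. Only uniquely aligned reads were counted, and which contigs the reads were aligned to is not given in the sources used here, so the part of lost reads in the levels was not tested. HLA-DRB1 reads can also be shared with HLA-DRB5 and HLA-DRB6, and 10.7% of the exon bases of CIITA overlap DEXI on the opposite strand.

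**Figure D3:**
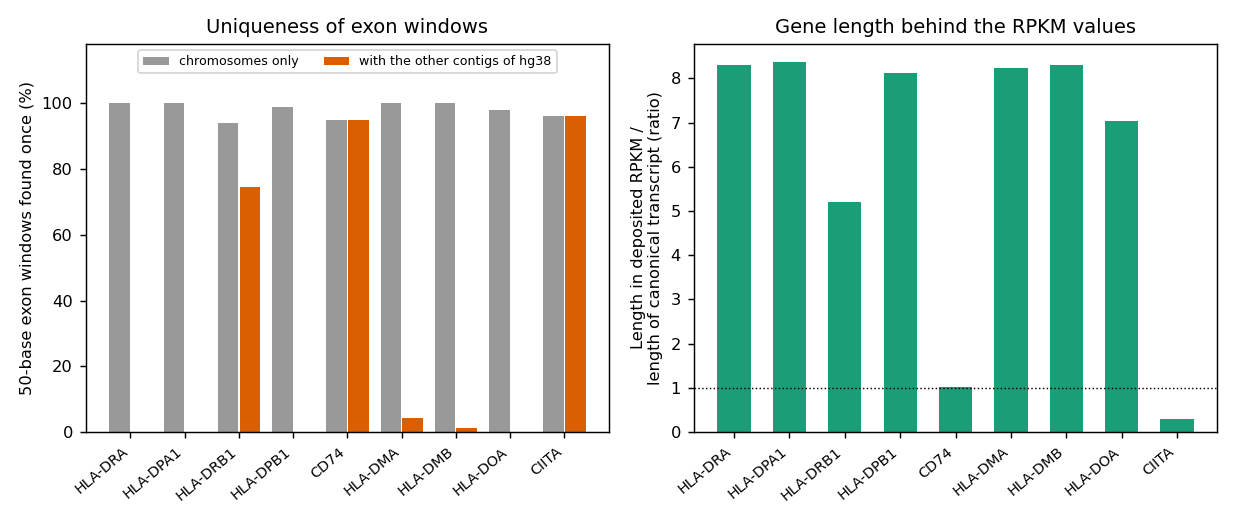
Left, share of 50-base exon windows (%) of each class II gene that occur once on the chromosomes of hg38 (grey) or once among all its contigs (orange). Right, gene length behind the deposited RPKM values divided by the canonical transcript length (ratio, dotted line at 1), which is 5.21 to 8.36 for the 7 HLA genes, 1.02 for CD74 and 0.293 for CIITA.

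Of 10 other class II genes, HLA-DQB1, HLA-DRB5, HLA-DRB6 and HLA-DOB were tested, and 5 had at most 3 counts in every sample. HLA-DOB, the partner of HLA-DOA, was at 6.15, 6.72, 4.24 and 3.51 CPM in DU145KO, at 2.73, 1.95, 1.18 and 1.66 CPM in DU145KO+α2 and at 3.99, 1.44, 2.01 and 1.52 CPM in DU145KO+vector. All DU145KO+α2 samples were below all DU145KO samples, while replicate 1 of DU145KO+vector reached into the range of DU145KO. HLA-DOB fell in DU145KO+α2 against DU145KO (log2 fold change −1.45, standard error 0.33, adjusted p = 0.0123). Its value of −1.17 in DU145KO+vector missed the threshold (adjusted p = 0.0764), which it passed with the replicate block (0.000512) and without replicate 4 of DU145KO or replicate 1 of DU145KO+vector.

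HLA-DQB1, the beta chain of HLA-DQ, had 14.0 ± 1.31 CPM per kilobase (SD, n = 4) in DU145KO. It was at 21.2 to 25.5 CPM in DU145KO, 13.8 to 19.8 CPM in DU145KO+α2 and 17.4 to 22.0 CPM in DU145KO+vector. It fell in DU145KO+α2 against DU145KO (log2 fold change −0.43, adjusted p = 0.0352), a call lost without replicates 1 or 2 of DU145KO or 3 or 4 of DU145KO+α2 (adjusted p up to 0.12), and between the transfected lines it was at −0.25 (adjusted p = 0.217, or 0.0230 with the block). HLA-DRB5, a close copy of HLA-DRB1, was at 0.68 in DU145KO+α2 against DU145KO+vector (adjusted p = 0.0942, or 0.00442 with the block), the direction of HLA-DRB1, whose reads it may share. HLA-DQA1, the alpha chain of HLA-DQ, had 3 to 13 counts in DU145KO and 0 to 4 in the transfected lines, too few for the test.

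The factors through which CIITA acts, and the known repressors looked at beside them, were detected in all lines. Among 15 genes of this kind, which were the RFX and NF-Y subunits, CREB1, coactivators and known repressors, 0 passed edgeR's test between the transfected lines (2 at an unadjusted p below 0.05, 1 with DESeq2 and 1 with limma) and 0 in DU145KO+vector against DU145KO (0 by each of these, where 2.34% of all genes tested passed), at median log2 fold changes of 0.01 and 0.06. RFX5 was at −0.02 between the transfected lines, RFXANK at 0.02 and NFYC at 0.01. RFXAP, the other RFX subunit, was at −0.32 (edgeR adjusted p = 0.0945) and lower in 4 of 4 pairs. Its lines did not overlap, where 8.8% of all genes tested were lower without overlap. With the replicate block 4 of the 15 passed between the transfected lines, a share close to the 26.5% of all genes tested, namely RFXAP (−0.32), EP300 (0.17), SMARCA4 (0.20) and PRDM1 (1.23). PRDM1, a repressor of CIITA in plasma cells, rose in DU145KO+α2 against DU145KO (log2 fold change 1.29, standard error 0.39, adjusted p = 0.0453), from 0.738 ± 0.308 to 1.84 ± 0.440 CPM (SD, n = 4). This call rested on few counts and was lost in 6 of the 12 fits that left out a sample, namely replicates 1, 2 or 3 of DU145KO and 1, 3 or 4 of DU145KO+α2, with an adjusted p of up to 0.135.

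Among 8 genes of interferon-γ signalling, the best known inducer of CIITA, 0 passed in DU145KO+vector against DU145KO (edgeR, with 1 at an unadjusted p below 0.05 and 0 with DESeq2 or limma) and 1 passed in each of the others, where 11.9% of all genes tested passed between the transfected lines and 8.17% in DU145KO+α2 against DU145KO. IRF1, a factor induced by interferon-γ, fell in DU145KO+α2 against DU145KO by 0.55 on the log2 scale (standard error 0.12, adjusted p = 0.00877), from 48.9 ± 5.86 to 33.5 ± 4.63 CPM (SD, n = 4). It was at −0.29 in DU145KO+vector against DU145KO (edgeR adjusted p = 0.247, or 0.0165 with the block). Between the transfected lines it was at −0.25 (adjusted p = 0.203, or 0.0244 with the block). JAK2, a kinase of the receptor, fell in DU145KO+α2 against DU145KO+vector by 0.43 (adjusted p = 0.0171, or up to 0.0535 without replicate 4 of either line). With the block 3 of the 8 passed between the transfected lines (26.5% of all genes tested), 3 in DU145KO+α2 against DU145KO (22.3%) and 2 in DU145KO+vector against DU145KO (13.4%), so nothing is read from these counts.

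Genes of endosomal antigen processing changed in both directions. CTSS, the cathepsin that trims the invariant chain, was at 10.6, 10.8, 10.2 and 6.73 CPM in DU145KO, at 4.60, 5.10, 5.20 and 4.07 CPM in DU145KO+α2 and at 11.5, 9.26, 9.84 and 7.78 CPM in DU145KO+vector. The DU145KO+α2 samples lay below all others and the α2 negative lines overlapped. CTSS fell in DU145KO+α2 by 1.02 on the log2 scale against DU145KO+vector (standard error 0.17, adjusted p = 0.000952, lower in 4 of 4 pairs) and by 1.01 against DU145KO (adjusted p = 0.00131). IFI30, an endosomal thiol reductase, fell by 0.75 (adjusted p = 0.00552) and by 0.63 (adjusted p = 0.0208, or up to 0.0709 without replicates 1 or 3 of DU145KO or 3 or 4 of DU145KO+α2). Of the 8 genes tested, 4 passed between the transfected lines (11.9% of all genes tested), or 6 with the block (26.5%). In DU145KO+α2 against DU145KO 2 passed (8.17%), or 5 with the block (22.3%). The count was 0 in DU145KO+vector against DU145KO (edgeR, with 2 at an unadjusted p below 0.05, 1 with DESeq2, 0 with limma and 2 with the block, where 13.4% of all genes tested passed). Between the transfected lines CTSB was higher (0.72, adjusted p = 0.0186, or up to 0.0607 without replicate 1 of DU145KO+α2 or 3 of DU145KO+vector). CTSD was lower (−0.45, adjusted p = 0.0173, or up to 0.0674 without replicates 3 or 4 of DU145KO+α2 or 1 or 2 of DU145KO+vector). Against DU145KO, CTSB was at 0.06 in DU145KO+α2 (edgeR adjusted p = 0.905). In DU145KO+vector it was at −0.66 (adjusted p = 0.0778, or 1.27e-05 with the block), so for CTSB the vector line was the one that differed in value.

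The MHC class I genes, which are read by CD8+ T cells and share parts of this regulation, gave a different pattern over the lines. Of 17 tested, all 17 were below 0 in DU145KO+α2 against DU145KO+vector, with a median log2 fold change of −0.48, and 10 passed the test, with 0 DE by edgeR at an adjusted or unadjusted p and 0 by DESeq2 or limma. Over all genes tested 51.4% were below 0 and 5.95% passed in that direction. NLRC5, the class I counterpart of CIITA, was at 22.6, 23.1, 25.0 and 19.5 CPM in DU145KO+vector and at 14.6, 15.1, 12.4 and 12.9 CPM in DU145KO+α2, without overlap. It fell by 0.71 (standard error 0.10, adjusted p = 0.000267) against DU145KO+vector, where CIITA was at −0.27 (95% interval −0.96 to 0.41), and by 0.74 (adjusted p = 0.00025) against DU145KO, while the α2 negative lines were alike in value, at −0.03 (adjusted p = 0.939). Leaving out 1 sample gave 7 to 12 class I genes between the transfected lines, and the block gave 15.

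Against DU145KO, 14 of 17 class I genes fell in DU145KO+α2 (5.08% of all genes tested), of which 5 were DE, and 3 fell in DU145KO+vector (1.84% of all genes tested), or 11 with the block. The count of 3 was 0 without replicate 1 of DU145KO and 1 without replicate 2 of DU145KO or replicates 3 or 4 of DU145KO+vector. PSMB9, an immunoproteasome subunit encoded between the class II genes, fell by 1.69 in DU145KO+α2 (adjusted p = 0.00036) and by 0.99 in DU145KO+vector (adjusted p = 0.0323, or up to 0.114 without replicates 1, 2 or 3 of DU145KO or 2, 3 or 4 of DU145KO+vector). ERAP1 and ERAP2, which trim class I peptides, fell by 1.23 and 1.39 in DU145KO+α2. In DU145KO+vector they were at −0.46 (edgeR adjusted p = 0.0117, or up to 0.0512 with a sample left out) and −0.53 (adjusted p = 0.0571). Both lay below DU145KO there without overlap. Of the 17 class I genes, 15 were below 0 in DU145KO+vector against DU145KO (median −0.26), where 50.3% of all genes tested were. Of 6 costimulators 3 were tested and 0 passed between the transfected lines (edgeR, with 1 at an unadjusted p below 0.05 and 0 with DESeq2 or limma). CD40 was at 0.06, ICAM1 at −0.12 and CD274 at −0.36 (adjusted p = 0.165, or 0.0388 with the block).

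**Figure D4:**
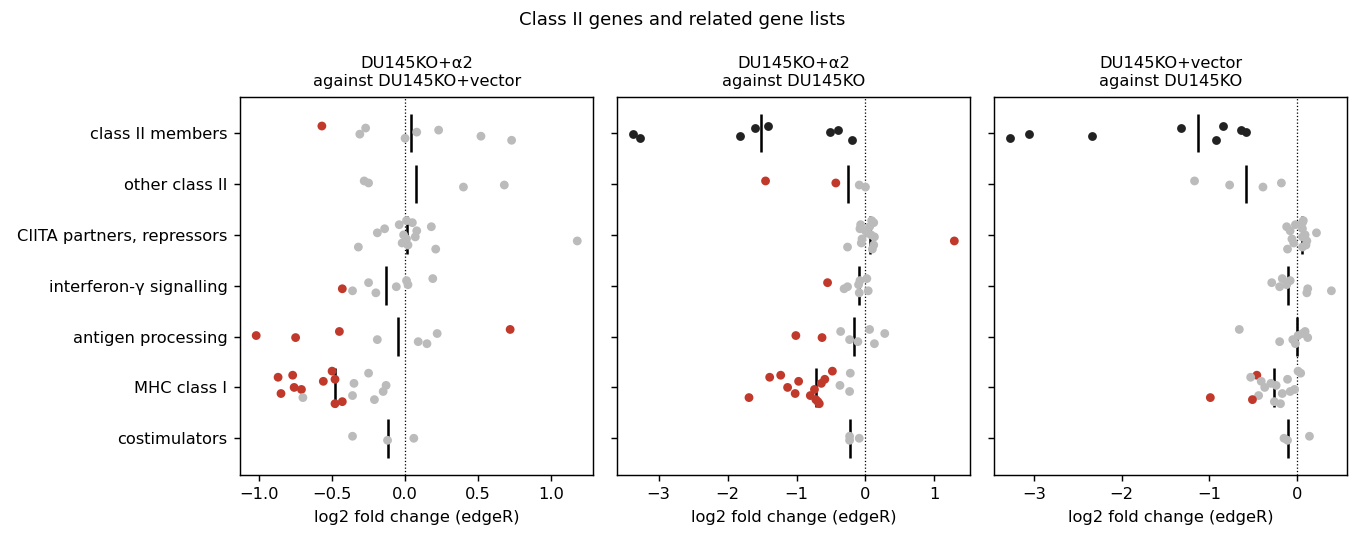
Log2 fold changes (horizontal axis, edgeR) of the class II genes tested and of 6 related gene lists in the 3 comparisons, each point a gene and each vertical line the median of its list. Red points have an adjusted p below 0.05 and grey points do not, black points are class II members in the comparisons that chose them and carry no test, and all 17 MHC class I genes lie below 0 in the left and middle panels.

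The genes between the class II genes on chromosome 6 were examined for a shift of the whole region. Of 6 such genes tested, which include the class I genes PSMB8, PSMB9, TAP1 and TAP2, the median log2 fold change was −0.76 in DU145KO+α2 against DU145KO and −0.39 in DU145KO+vector against DU145KO. BRD2, next to HLA-DMA, was at 0.05 and −0.11. Over 79 genes tested within 1 Mb of the region, the class II genes left out, the medians were −0.02 and −0.04.

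Blood-derived antigen presenting cells were looked for by 12 marker genes, of which 6 were above 3 counts in some sample. Of the defining markers, MS4A1 and CD1C had 0 counts in every sample and PTPRC had at most 1. CD14, LYZ, ITGAX and ITGAM, which are expressed by myeloid cells, were present in every sample, at 21 to 43, 17 to 41, 10 to 35 and 5 to 44 counts. All 12 markers summed to 102 to 272 CPM in DU145KO, 66.0 to 172 CPM in DU145KO+α2 and 131 to 237 CPM in DU145KO+vector, nearly all of it from CD79A. Without CD79A, the markers summed to 6.42 to 7.94 CPM in DU145KO, 5.59 to 6.56 CPM in DU145KO+α2 and 5.18 to 7.23 CPM in DU145KO+vector. The ranges of the lines overlapped in both sums. CD79A, a B cell gene, had 935 to 4272 counts.

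The 5 genes taken as epithelial markers were KRT8, KRT18, EPCAM, CDH1 and CD44, the last a stem cell marker in the study. All 5 were detected in every line, and some were lower where class II genes were lower. They summed to 1230 to 1590 CPM in DU145KO, 863 to 1190 CPM in DU145KO+α2 and 1060 to 1410 CPM in DU145KO+vector, so DU145KO+α2 lay below DU145KO without overlap and DU145KO+vector overlapped both. EPCAM, an epithelial adhesion protein, fell against DU145KO by 1.14 on the log2 scale in DU145KO+α2 (adjusted p = 1.86e-05, edgeR) and by 0.83 in DU145KO+vector (adjusted p = 0.00093). CDH1, the adhesion protein E-cadherin, fell in DU145KO+α2 by 1.13 against DU145KO (adjusted p = 0.00054) and by 0.70 against DU145KO+vector (adjusted p = 0.00981), and it was at −0.43 in DU145KO+vector against DU145KO (adjusted p = 0.189). KRT18, a keratin, was at −0.42 in DU145KO+α2 against DU145KO, and its call (adjusted p = 0.0434) was lost without any 1 sample other than replicate 3 of DU145KO, 2 of DU145KO+α2 and 2 and 3 of DU145KO+vector, with an adjusted p of up to 0.149. KRT8 and CD44 did not pass in any of the 3 comparisons without the block. The part of these markers in the class II differences was not tested.

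Within a line, the class II genes varied with the replicate number. Replicate 1 was the highest of its line in 17 of 27 cases (9 genes in 3 lines), and in all 3 lines for HLA-DRA, HLA-DRB1 and HLA-DMA. These cases share libraries and are not independent. The replicate 1 samples also deviated together across all genes tested (correlation 0.458 to 0.554 between lines), so a shared deviation is not particular to the class II genes. The deviation of replicate 1 from the line mean, averaged over the lines, was 0.65 on the log2 CPM scale for HLA-DRA and 0.42 for HLA-DRB1, against −0.39 and −0.33 for replicate 3. CIITA did not share this order on average, with −0.20 for replicate 1 and 0.07 for replicate 3. The negative value came from a single library, replicate 1 of DU145KO+α2, with 5 counts (0.311 CPM). Replicate 1 of CIITA was the highest in DU145KO (2.91 CPM) and above the line mean in DU145KO+vector (1.16 against 1.0 CPM). Over the 12 samples, the deviations of HLA-DRA had a Pearson's r of 0.86 with those of HLA-DMB, 0.84 with HLA-DMA, 0.83 with HLA-DRB1 and 0.00 with CIITA. These values are a description, as the samples share replicate numbers and the CIITA deviations rest on 5 to 44 counts. The design names no culture condition that differs between replicates. The study's methods state that sequencing used more than 1 lane, without saying which samples ran in which lane. What set replicate 1 apart was not tested.

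**Figure D5:**
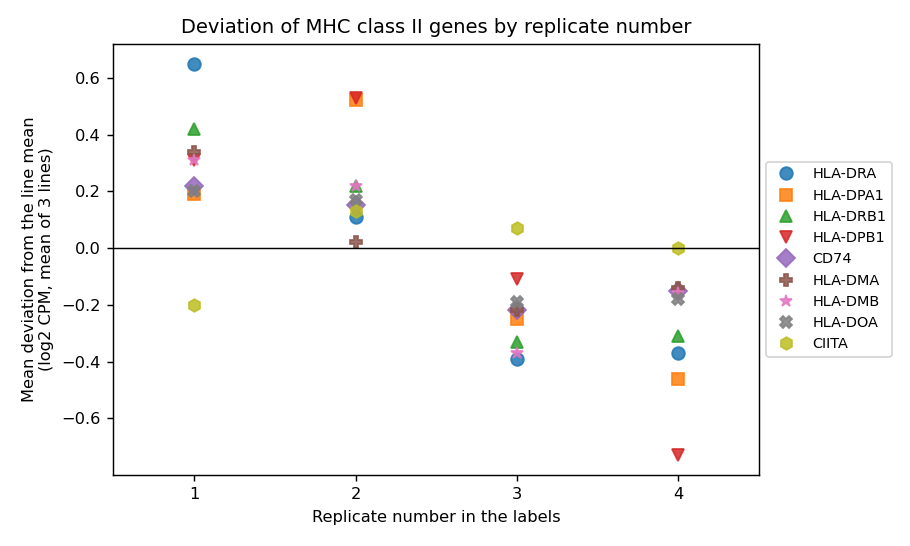
Mean deviation of each class II gene from its line mean (vertical axis, log2 CPM, mean of the 3 lines) by replicate number (horizontal axis). The other 8 genes lie above 0 in replicates 1 and 2 and below 0 in replicates 3 and 4. CIITA is at −0.20 in replicate 1, where its DU145KO+α2 sample had 5 counts.

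The genes whose level followed HLA-DRA most closely were WWC1 (Pearson's r of 0.978 on the log2 CPM of the 12 samples), SYT7 (0.971), WFDC2 (0.967), ACSS1 (0.961) and FAM110C (0.958), and WWC1 (0.966) and FAM110C (0.953) were also among the 5 closest to HLA-DPA1, with MAP7 (0.965), DSP (0.958) and KIAA0040 (0.956). These genes were searched among those whose mean log2 CPM was 1 or more. WFDC2, a secreted epithelial protein, averaged 20.5 CPM in DU145KO and 6.17 and 4.46 CPM in the lines with α2 and with the empty vector, and DSP, the desmosomal plaque protein desmoplakin, was at 162, 59.9 and 51.5 CPM. The points of such a correlation share the 3 lines, so any gene higher in DU145KO than in both transfected lines gives a high value.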

How the data were processed

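The authors made stranded mRNA libraries, sequenced 50-base single-end reads (bcl2fastq 1.8.4), aligned them to hg38 with TopHat2 2.1.0, counted uniquely aligned reads per gene with Subread 1.5.0 and deposited these counts without normalization. Whether counting used the strand is not given in the sources used here. The authors also deposited RPKM values after TMM normalization, used here for their gene lengths and as an alternative. The deposited counts were tested in R 4.3.3 with edgeR 4.0.16 (quasi-likelihood, robust, TMM, filterByExpr with a minimum count of 10, 12 samples in 1 model), with Benjamini-Hochberg adjustment over the 14732 genes tested, and single genes were compared with two-sided exact permutation tests of 4 against 4 samples. Intervals of 95% are the log2 fold change with its standard error on the t distribution of the fit. The scripts were tested on simulated counts. The study's methods used voom and limma, an alternative here. Other alternatives were DESeq2 1.42.0 (test and size factors), library size alone, no filter, a mean count of at least 10, only the lines compared, an adjusted p alone, a block on replicate number and leave-one-out fits.

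Lines and replicate numbers come from the sample labels. Same-numbered samples of different lines deviated together (12 pairs, correlation across genes 0.135 to 0.554, other pairs −0.29 to 0.149). The numbers were therefore used for the counts of pairs and for the block, which is an alternative. The main edgeR fit and the permutation tests did not use this pairing. Replicates differed beyond sampling noise (chi-square per degree of freedom 6.98 to 23.7). Genes named are ITGA2, the 9 class II genes, genes of related lists, the genes between them on chromosome 6 and the 5 genes most like HLA-DRA or HLA-DPA1. DEXI, which overlaps CIITA, was added after values were seen. The members and lists were chosen with earlier results of these data known. Some listed genes are not reported here. Positions come from GENCODE v44 and promoters from RefSeq.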

Additional observations from a re-analysis of the deposited data

Results flagged for a closer look

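In 3 of 30 groups of 4 replicates (the 9 class II genes and ITGA2 in 3 lines), 1 sample stood apart from the others (Dixon's 95% criterion, which chance meets in about 1 of 20 groups, here 1.5). Each was replicate 1 of DU145KO. Its gap to the nearest sample as a share of the range was 0.899 for HLA-DRA (23.4 CPM against 12.7 to 13.7 CPM), 0.857 for CD74 (99.3 against 72.6 to 76.4 CPM) and 0.915 for HLA-DMA (49.2 against 32.1 to 33.5 CPM). The groups are not independent, since the genes share their libraries.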

How the results depend on the processing

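Members were DE between the transfected lines under 0 of the alternatives that kept the fold threshold. With an adjusted p alone, 1754 genes passed between the transfected lines (1 member, CD74), 1203 in DU145KO+α2 and 344 in DU145KO+vector against DU145KO, where 325, 309 and 123 were DE. With the replicate block 218 genes were DE in DU145KO+vector against DU145KO, and leaving out a sample gave 79 (without DU145KO+vector replicate 3) to 196 (without its replicate 1), with 2 to 5 members. Between the transfected lines, HLA-DRA was at −0.01 with library size alone and between −0.22 and 0.41 when a sample was left out, and HLA-DMB between −0.04 and 0.22. HLA-DRB1 passed with DESeq2 (0.74, adjusted p = 0.0157) and with the block (0.74), and was between 0.56 and 0.92 when a sample was left out. CD74 missed the threshold without the filter on low counts (−0.56, adjusted p = 0.0835) and was between −0.72 and −0.46 when a sample was left out. HLA-DMA passed with the block (0.25). The causes were not tested, beyond the smaller error that the block leaves. The block changed no other call of a member between the transfected lines. HLA-DOA, HLA-DPB1 and CIITA rest on few counts, which limits what can be shown at this depth.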

Other observations

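Among genes followed across samples within the lines, the deviations closest to those of HLA-DRA were those of SAMD9, an interferon-induced gene (Pearson's r of 0.974 over 12 samples), the class I pseudogene HLA-H (0.954), PLOD1 (0.953), NDUFA2 (0.951) and AVPI1 (0.941). SAMD9 averaged 16.4 CPM in DU145KO and 3.07 and 6.31 CPM in the lines with α2 and with the empty vector. These values describe 12 samples that share replicate numbers.

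CD79A, a B cell receptor component, was at 93.9 to 265 CPM in DU145KO, with 59.5 to 166 CPM in the α2 line and 124 to 232 CPM in the vector line, while the B cell gene MS4A1 had 0 counts in every sample.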
